A study of Schmidtea mediterranea with 15 samples.

Results

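A set of 80 transcript models, of 26671 in the deposited table (0.30%), was higher in irradiated planarians both at 24 h and at 96 h after gamma radiation than in unirradiated worms. The members were chosen from mean RPKM (read density per kilobase of model, relative to the reads of its library) with a pseudocount of 0.5 RPKM. The change against 0 h had to be at least 0.4 on the log2 scale at 24 h (1.32-fold) and at least 0.6 at 96 h (1.52-fold), and the mean at 96 h at least 2 RPKM. The choice therefore used the libraries at 0, 24 and 96 h, and the values at these times describe the members and test nothing. The libraries at 48 h and 72 h took no part in it.

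The worms were whole adult Schmidtea mediterranea, a freshwater flatworm, all from the CIW4 line, which is 1 clone. All groups were kept in salt water with gentamicin sulfate, fed on liver and starved before use. Worms given 6000 rad of gamma radiation and taken 24, 48, 72 and 96 h later, and unirradiated worms (0 h, 0 rad), were each represented by 3 polyA RNA libraries, 15 in all. Unirradiated worms were sampled at 0 h only, so irradiation, elapsed time and any handling that went with them cannot be told apart. Whether the 3 libraries of a group stem from separate cultures is not in the labels, and p-values therefore cover only the spread between these libraries, which may be technical.

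Planarians renew all their tissues from dividing stem cells, the neoblasts. These cells are sensitive to ionising radiation, and after a high dose they are lost and tissue turnover fails while differentiated cells persist for a time. In such worms, transcripts of stem cells and of their short-lived progeny fall. The table carries IDs without gene names, and no annotation was used here, so members are given no role, cell type or pathway, and no stem cell or tissue marker could be checked. At most 4 members are given by ID, and the others by counts, ranges or their place among the members.

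The libraries held 9749391 to 13801926 reads at 0 h and 16435841 to 30707808 at the irradiated times, as worked out from the steps of the RPKM values, so all 0 h libraries were less deep than all irradiated ones. All 80 members were among the 21231 models tested, those with at least 1 RPKM in at least 3 libraries. Of the 80, 64 reached 1 RPKM in every 0 h library and 16 did not.

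Most members were transcripts of low abundance. Their mean level at 0 h ranged from 0.796 to 369 RPKM with a median of 2.86 RPKM. It was under 2 RPKM in 30 members, from 2 to under 10 RPKM in 35, from 10 to under 100 RPKM in 12 and at least 100 RPKM in 3. Over all tested models the median level at 0 h was 6.72 RPKM. The members had a median of 50 reads over the 3 libraries at 0 h, against 314 for all tested models, and 52 of the 80 had fewer than 100 reads. A level in whole worms does not tell more cells of a type apart from more RNA per cell, and a gain or loss of total RNA in a worm does not show in RPKM.

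The median log2 change of the members against 0 h was 0.57, 0.59, 0.61 and 0.69 at 24, 48, 72 and 96 h. Over all tested models the medians at these times were -0.01, 0.02, 0.02 and 0.03. The change at 24 h ranged from 0.40 to 1.62 and that at 96 h from 0.60 to 1.05, and these bounds follow in part from the choice. A rise of at least 2-fold on this scale was seen in 6, 5, 5 and 1 members at these times. By plain means without the pseudocount, a count added after seeing the data, it was seen in 14, 14, 11 and 13 members.

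**Figure D1:**
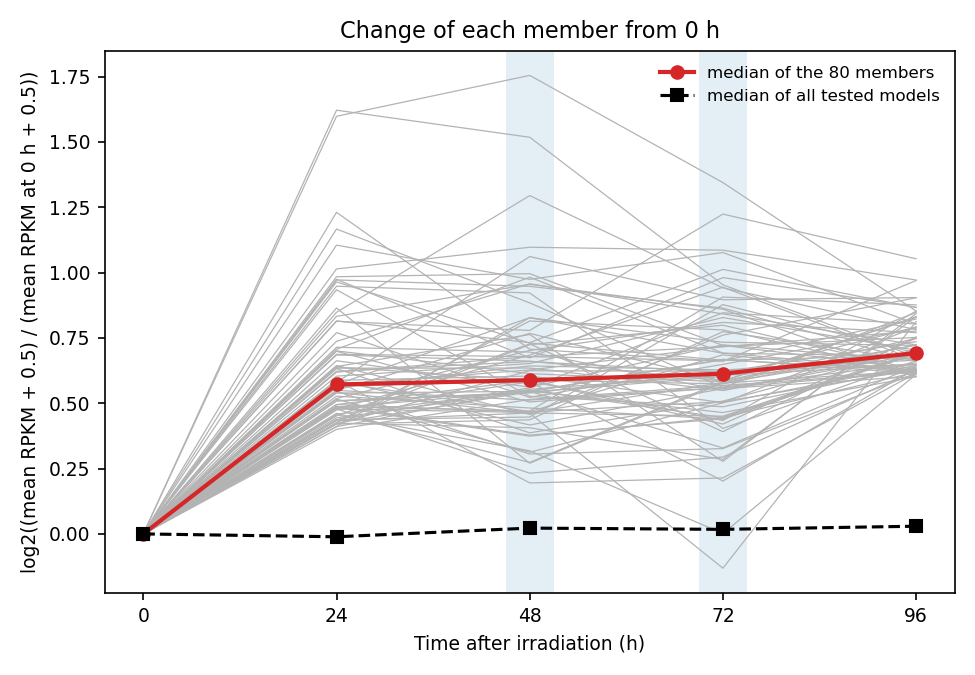
The log2 change of mean RPKM from 0 h (y axis, pseudocount 0.5 RPKM) is plotted against hours after irradiation (x axis) for each of the 80 members (grey), with the median of the members (red) and of all 21231 tested models (black, dashed). Shading marks 48 h and 72 h, the times the choice of members did not use, where the member medians were 0.59 and 0.61. Both medians are against the 0 h libraries, which the choice did use.

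At the times that were not used, 79 of 80 member means at 72 h and 80 of 80 at 48 h lay above the mean at 0 h. By means of log2 values, it was 80 members at 48 h and 78 at 72 h, and 11335 and 11139 of the 21231 tested models. In 64 members the change was at least 0.4 at both 48 h and 72 h, and in 16 it was smaller at 1 or both of them. The share of all tested models with 0.4 at both times was not worked out. The change ranged from 0.20 to 1.75 at 48 h and from -0.13 to 1.34 at 72 h. All 3 values lay above all 3 values at 0 h in 67 members at 48 h and in 62 members at 72 h, where 25% and 25.2% of all tested models did so. The same held for 66 members at 24 h (23% of all tested models) and 74 at 96 h (28.1%). In 53 members, and in 12.2% of all tested models, all 12 irradiated values lay above all 3 values at 0 h. The 0 h libraries that these counts share were part of the choice, so nothing is read from them.

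In the limma fit across all tested models, with Benjamini-Hochberg adjustment and a call at an adjusted p below 0.05, 68, 58, 61 and 76 members were called higher than at 0 h at 24, 48, 72 and 96 h. The shares of all tested models called higher were 19.4%, 20.5%, 22.1% and 22.7% at these times. These contrasts share the 0 h libraries with each other and with the choice, and the counts describe the members without testing them. Called lower than at 0 h were 0 members at each of the 4 times, also at an unadjusted p below 0.05, and 20.9%, 19.5%, 21.5% and 22.2% of all tested models.

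The members were also divided by level, as a description that shares the 0 h libraries with the choice. The 20 members with a mean of at least 10 RPKM over the 15 libraries were all called higher at each of the 4 irradiated times, and in all 20 the 3 values at each time lay above the 3 at 0 h. Their median log2 change was 0.56, 0.64, 0.70 and 0.66 at 24, 48, 72 and 96 h. Of the 60 members below 10 RPKM, 48, 38, 41 and 56 were called at these times, and their medians were 0.58, 0.57, 0.58 and 0.70. Shares of all tested models called were not worked out by level. The difference in calls between the levels is therefore not read as particular to the members.

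The most abundant member, a model of 321 bases, had 380, 359.5 and 368 RPKM at 0 h. Its values were 587, 610 and 504 RPKM at 24 h, 588, 620 and 564 at 48 h, 637, 610 and 574 at 72 h, and 616, 611 and 638 at 96 h. Every irradiated library thus lay above every unirradiated one, while the ranges of neighbouring irradiated times overlapped. Relative to 0 h, its mean was 1.54-, 1.60-, 1.64- and 1.68-fold at 24, 48, 72 and 96 h.

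The member that took the most reads, 3012 bases long, had 360, 365 and 373 RPKM at 0 h, from 10908 to 15028 reads per library. It reached 511, 472 and 491 RPKM at 24 h, 548, 503 and 551 at 48 h, 541, 607 and 598 at 72 h, and 564, 564 and 553 at 96 h. Again no irradiated value overlapped those at 0 h. Relative to 0 h, its mean was 1.34-, 1.46-, 1.59- and 1.53-fold at 24, 48, 72 and 96 h. With 29155 to 52562 reads per library at 96 h, these values carry little counting error.

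This model alone held 48.6% to 54.4% of the reads of all 80 members in every library. Together the members took 0.212% ± 0.00375 of reads in unirradiated worms and 0.299% ± 0.0110, 0.316% ± 0.0134, 0.323% ± 0.0128 and 0.335% ± 0.00407 after 24, 48, 72 and 96 h (SD, n = 3 each). The other 79 members took 0.101% ± 0.00235 in unirradiated worms and 0.150% ± 0.00259, 0.156% ± 0.00454, 0.150% ± 0.00443 and 0.165% ± 0.00314 after 24, 48, 72 and 96 h. Both this model and the other 79 took a larger share at every irradiated time than at 0 h, with no overlap. The members were chosen for higher levels at 24 h and 96 h than in these 0 h libraries, so the shares describe them and test nothing.

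By the rule fixed for printing IDs, 2 members were named for the largest change at 96 h among the 51 members with at least 1 RPKM at 0 h and no overlap with 0 h at any irradiated time. SMED30019810, 617 bases long, had 2.34, 2.78 and 2.22 RPKM at 0 h. It had 4.71, 5.35 and 6.28 RPKM at 24 h, 5.87, 6.02 and 5.50 at 48 h, 6.36, 5.17 and 5.72 at 72 h, and 4.96, 6.24 and 4.63 at 96 h. Its level was thus higher in all 12 irradiated libraries, and the 4 irradiated times overlapped each other. The mean was 5.28 ± 0.847 RPKM at 96 h and 2.45 ± 0.294 RPKM at 0 h (SD, n = 3 each), a 2.16-fold difference. Each library held 50 to 119 of its reads at 96 h, against 17 to 20 at 0 h.

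SMED30030496, 304 bases long, had 3.09, 2.65 and 3.18 RPKM at 0 h. Its values were 4.29, 6.71 and 7.97 RPKM at 24 h, 5.71, 5.19 and 4.22 at 48 h, 7.38, 6.26 and 5.42 at 72 h, and 5.99, 6.06 and 5.45 at 96 h. All irradiated values were above those at 0 h, and the spread was widest at 24 h. The mean was 5.84 ± 0.334 RPKM at 96 h and 2.97 ± 0.281 RPKM at 0 h (SD, n = 3 each), a 1.96-fold difference. Only 8 to 13 reads per library stand behind the level at 0 h.

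**Figure D2:**
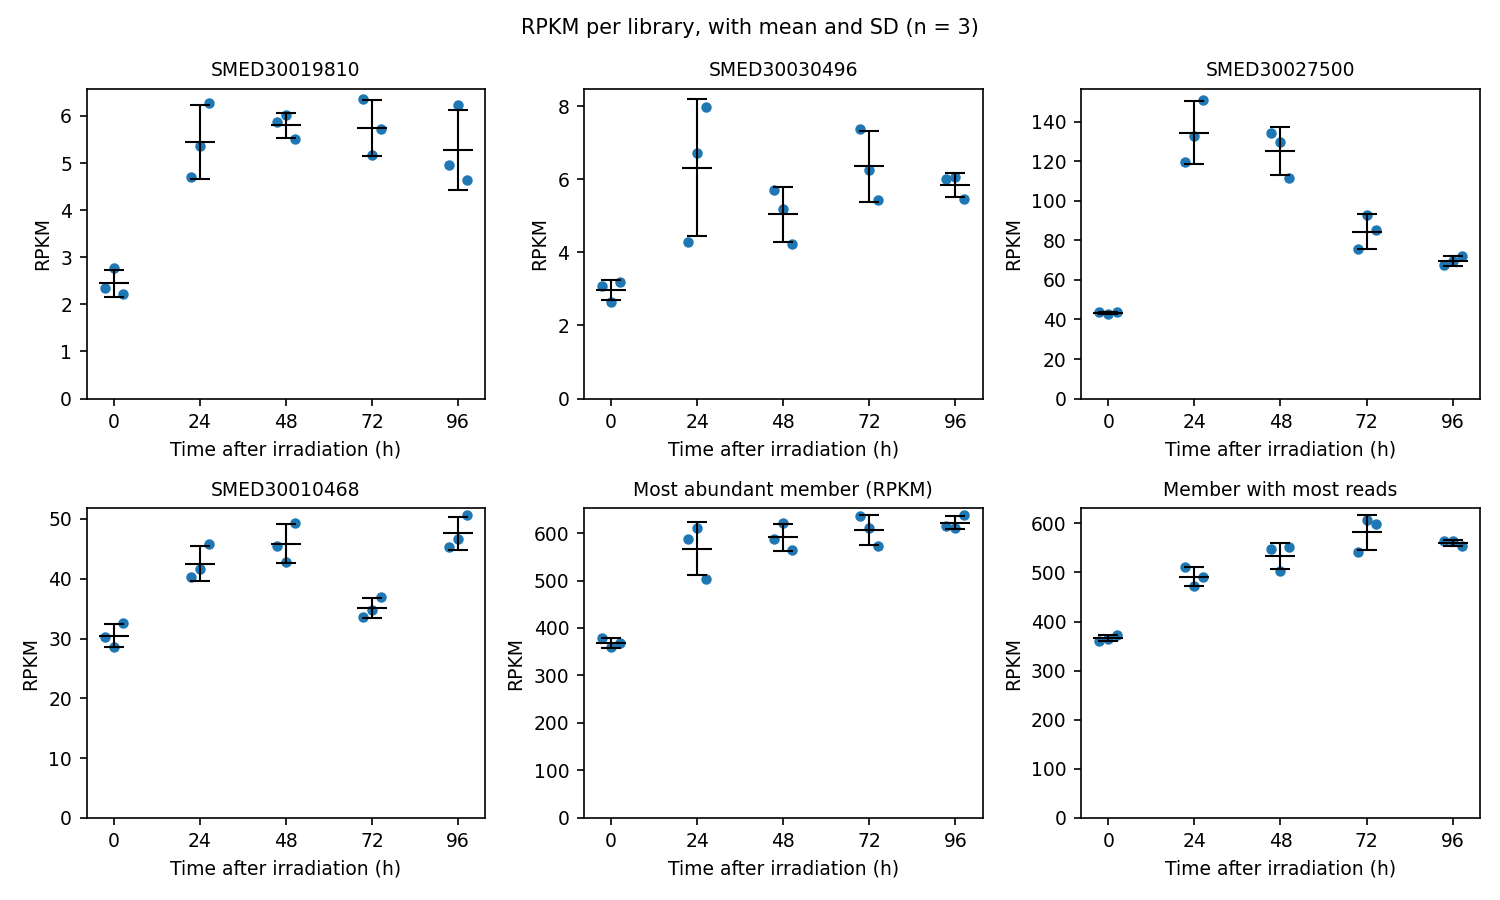
RPKM in each library (points, y axis) is plotted against hours after irradiation (x axis) for the 4 members named by ID, the most abundant member and the member with the most reads, with the mean and SD of the 3 libraries of each time (black). In each panel all 12 irradiated values lie above the 3 values at 0 h, and the level of SMED30027500 declines after 48 h. For SMED30019810 and SMED30030496 this separation was a condition for printing the ID, and the 0 h libraries took part in choosing all members.

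The comparison of 72 h with 48 h asks whether the members were still moving between the times that the choice did not use. Of the 80 members, 0 rose and 3 fell between 48 h and 72 h (limma, adjusted p below 0.05), and 77 were not called. Over all tested models 0.41% were called higher and 1.4% lower. At an unadjusted p below 0.05, 5 members were higher and 7 lower, and limma-voom on the recovered reads called 2 higher and 3 lower. Shares of all tested models at that cut-off and under limma-voom were not worked out, so nothing is read from these counts. The median log2 change of the members was -0.0073, with quartiles of -0.13 and 0.11, and that of all tested models was -0.0028, with quartiles of -0.09 and 0.08. The changes of single members ran from -0.60 to 0.43, 38 of them above 0 and 42 below. The median standard error was 0.15 for the members and 0.10 for all tested models.

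SMED30027500, a model of 671 bases, showed the largest called fall between these times. It had 75.5, 92.9 and 85.0 RPKM at 72 h, against 134, 130 and 111 RPKM at 48 h, with no overlap between the times. The log2 change was -0.57 (SE 0.08, limma adjusted p = 0.00151). At 24 h it had 120, 133 and 151 RPKM, at 96 h 67.5, 69.4 and 72.2 RPKM, and at 0 h 43.7, 42.8 and 43.7 RPKM. Relative to 0 h, its mean was thus 3.10-, 2.88-, 1.95- and 1.61-fold at 24, 48, 72 and 96 h. Of all members it had the largest change at 24 h on the log2 scale with the pseudocount, though not by plain means, and its 3 values at 96 h lay below its 3 values at 24 h.

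SMED30010468, 2744 bases long, had 33.7, 34.8 and 37.0 RPKM at 72 h, against 45.6, 42.7 and 49.3 RPKM at 48 h. The values did not overlap, and the log2 change was -0.38 (SE 0.06, limma adjusted p = 0.00545). It had 45.4, 46.7 and 50.7 RPKM at 96 h, 40.2, 41.6 and 45.8 RPKM at 24 h, and 30.3, 28.6 and 32.5 RPKM at 0 h. The level at 72 h was therefore lower than at the times before and after it, yet all 3 values at 72 h were above those at 0 h. Each library held 1555 to 3079 of its reads at 72 h, against 2304 to 3905 at 48 h.

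The other member called lower, 868 bases long, had 39.6, 38.1 and 46.8 RPKM at 72 h, against 52.5, 50.8 and 49.3 RPKM at 48 h, with no overlap. The difference was -0.30 on the log2 scale (SE 0.07, limma adjusted p = 0.0490). This call was lost under 9 of 14 alternatives, among them leaving out 48 h replicate 1 (limma adjusted p = 0.168), replicate 2 (0.123) or replicate 3 (0.0892), or 72 h replicate 1 (0.118) or replicate 2 (0.205). The range of its adjusted p over the alternatives was 0.00539 to 0.205. The calls of SMED30027500 and SMED30010468 held in all 14, with adjusted p up to 0.0301 and 0.0329 (limma).

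**Figure D3:**
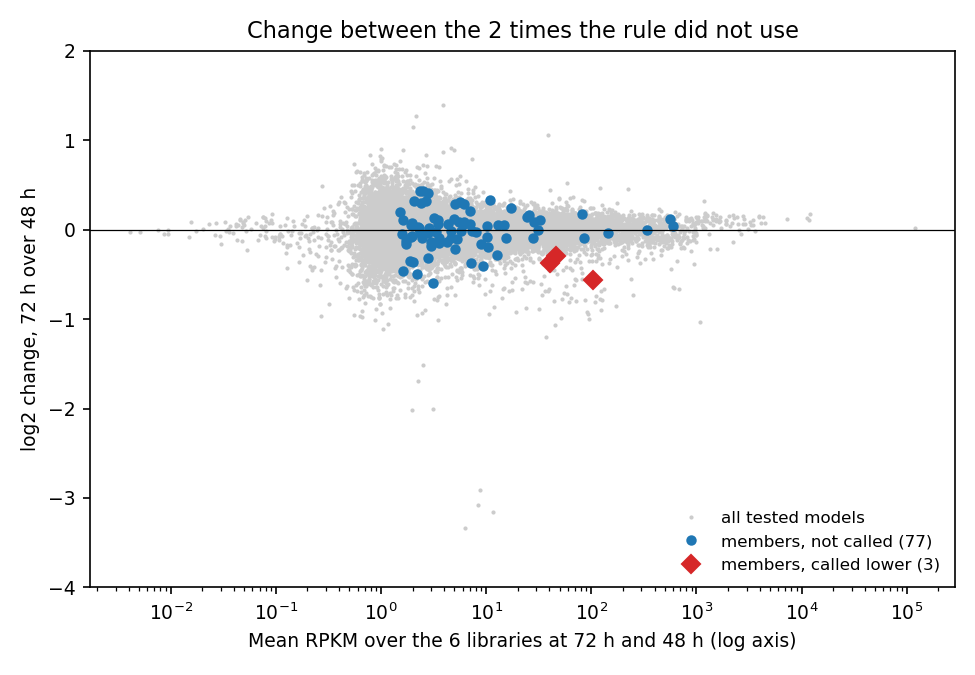
The log2 change at 72 h over 48 h (y axis) is plotted against mean RPKM over those 6 libraries (x axis, log scale) for all 21231 tested models (grey), the 77 members not called (blue) and the 3 called lower (red, limma adjusted p below 0.05). The members lie on both sides of 0, between -0.60 and 0.43, and the 3 called ones lie among members of higher level.

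Models on either side of the thresholds were compared over the same interval. There were 1065 models that rose by 0.4 or more at 24 h without reaching 0.6 at 96 h, and 73 that reached 0.6 at 96 h without 0.4 at 24 h, both with at least 2 RPKM at the higher of these times. Of the 80 members, 3 (3.75%) were called lower at 72 h than at 48 h. Of the 1064 tested models with the early rise only, 91 (8.55%) were called lower and 2 higher, and of the 73 with the late rise only, 1 (1.37%) was called lower and 0 higher (limma, adjusted p below 0.05). Their medians were -0.01 and -0.08. The median standard error was 0.08 with the early rise only, 0.15 in the members and 0.19 with the late rise only. The shares called thus rest on unlike precision. The lists were parted by their values at 24 h and 96 h, on either side of this interval, and the difference between them was not tested.

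Within the members, the time of the highest level varied. The highest irradiated mean fell on 24, 48, 72 and 96 h in 10, 11, 15 and 44 members. The mean rose at every step from 0 h to 96 h in 6 members and fell at every step from 24 h to 96 h in 2. The change at 24 h exceeded that at 96 h in 19 of the 80. Against 24 h, 7 members were called higher and 3 lower at 96 h, where 15.1% and 16.3% of all tested models were called (limma). Between 24 h and 48 h, 4 members were called higher and 0 lower, beside 6.8% and 6.28% of all tested models. At an unadjusted p below 0.05 (limma), 9 members were higher and 3 lower. Between 72 h and 96 h, 2 were called higher and 0 lower, beside 1.34% and 3.6%, and 10 were higher and 3 lower without adjustment. Unadjusted shares of all tested models were not worked out. The times 24 h and 96 h were used in the choice, so these counts are descriptions.

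All 3 libraries at 0 h took part in choosing the members. Models were therefore also chosen anew and set against a library that took no part in that choice. Each 0 h library in turn was kept out, the same thresholds were applied to the remaining libraries, and the means at 48 h and 72 h were set against the library kept out. This check was added after the data had been seen. It chose 137, 96 and 123 models without 0 h replicate 1, 2 and 3, of which 67, 47 and 64 were among the 80 members.

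The median log2 change against the library kept out was 0.34, 0.36 and 0.35 at 48 h for 0 h replicates 1, 2 and 3, and 0.35, 0.40 and 0.37 at 72 h. Against the libraries used in the choice, the medians of the same models were 0.63, 0.64 and 0.68 at 48 h and 0.66, 0.66 and 0.68 at 72 h. Over all tested models the median against the library kept out was 0.02 or 0.03 in each of the 6 cases. The 3 choices share libraries and models and are not independent of each other. For the models chosen this way, the median against the library kept out was above that of all tested models. It was smaller than the median against the libraries used. Many of these models were not members, so the medians do not measure the rise of the members, and each rests on 1 library at 0 h. All 3 values at 48 h lay above the library kept out in 94 of 137, 67 of 96 and 83 of 123 models, or 68.6%, 69.8% and 67.5%, where 39.3%, 41.0% and 39.8% of all tested models did so.

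Both measures lay closer together for models of higher level. With a mean of at least 10 RPKM over the 15 libraries, the 32, 18 and 26 models chosen had medians of 0.45, 0.59 and 0.50 at 48 h against the library kept out, and 0.62, 0.64 and 0.65 against those used. At 72 h the medians were 0.44, 0.67 and 0.57 against the library kept out, and 0.64, 0.68 and 0.70 against those used. For the 105, 78 and 97 models below 10 RPKM, the medians against the library kept out were 0.31, 0.31 and 0.29 at 48 h and 0.34, 0.34 and 0.33 at 72 h. In 18 of 18 and 26 of 26 models of at least 10 RPKM, all 3 values at 48 h lay above the library kept out, for 0 h replicates 2 and 3, and in 26 of 32 for replicate 1. Of all tested models of that level, 53.7%, 52.3% and 52.3% did so for replicates 2, 3 and 1. Below 10 RPKM it was 68 of 105, 49 of 78 and 57 of 97 models (64.8%, 62.8% and 58.8%) for replicates 1, 2 and 3, and 30.9%, 32.7% and 31.6% of all tested models of that level.

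**Figure D4:**
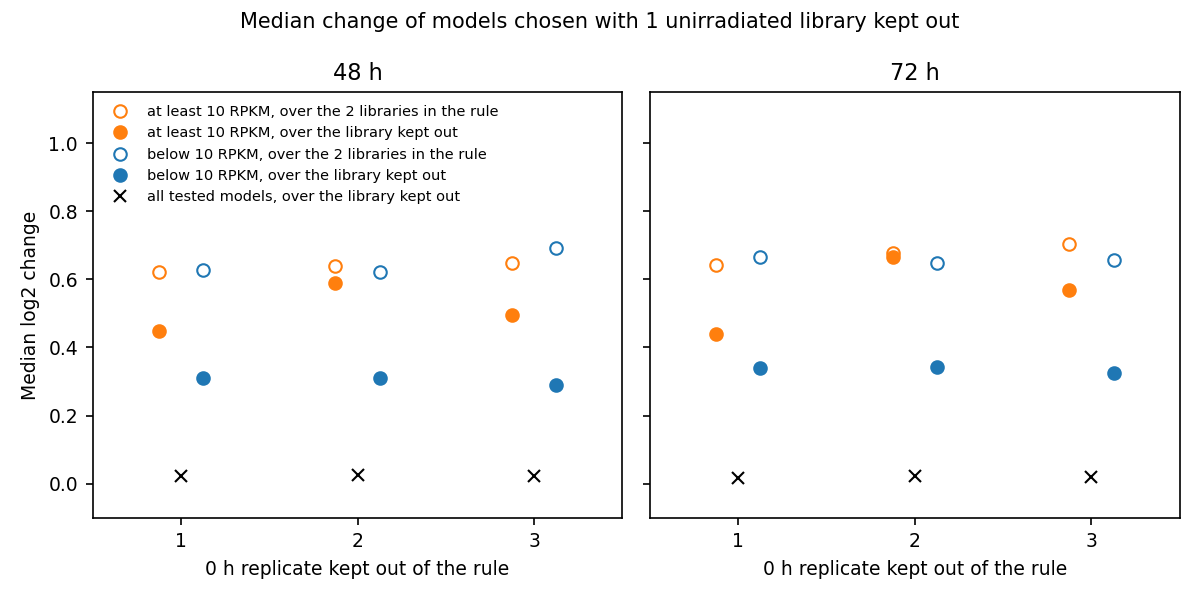
The median log2 change at 48 h (left) and 72 h (right) is plotted for models chosen with 1 of the 3 unirradiated libraries kept out (x axis), against that library (filled) and against the libraries used in the choice (open), for models of at least 10 RPKM (orange) and below 10 RPKM (blue). Below 10 RPKM the filled points lie between 0.29 and 0.34, and at 10 RPKM or more between 0.44 and 0.67. Crosses show all tested models, at 0.02 or 0.03.

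The composition of the set depended on single libraries. Without 0 h replicate 1, 2 or 3 the thresholds gave 137, 96 or 123 models, without 24 h replicate 1, 2 or 3 they gave 79, 73 or 72, and without 96 h replicate 1, 2 or 3 they gave 83, 78 or 81. Leaving out 0 h replicate 2 removed 33 of the 80 members, more than any other library did. That library was also the least deep of all, with 9749391 reads, and the part of depth in this was not tested. Only 21 members (26.2%) were chosen in all 9 of these choices, 7 of them among the 20 of at least 10 RPKM. Many models lay close to the thresholds. The member nearest to the threshold at 96 h had a change of 0.602, with means of 29.8 RPKM at 96 h and 19.5 RPKM at 0 h, and the nearest model outside it 0.598, with 5.62 RPKM at 96 h and 3.54 RPKM at 0 h. Within 0.05 of that threshold lay 25 members and 35 models that met the other conditions but not this one. At 24 h the nearest values were 0.40 inside and 0.39 outside, and for the level at 96 h they were 2.005 and 1.97 RPKM.

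The members were also short. Length, which the choice did not use directly, had a median of 552 bases in the members and 1129 bases in all tested models, and 37 members (46.2%) were under 500 bases, against 17.5% of all tested models. The lengths ran from 130 to 13546 bases, and 3 members were of at least 2000 bases. In the models with the early rise only, the median was 893 bases, and in those with the late rise only 732 bases. Short models of low level gather few reads, and the part that this had in their being chosen was not tested.

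The longest member, of 13546 bases, had 20.9, 22.6 and 24.2 RPKM at 0 h, from 3039 to 4073 reads per library. It had 31.6, 30.3 and 30.1 RPKM at 24 h, 30.3, 26.8 and 36.8 at 48 h, 29.0, 29.8 and 34.2 at 72 h, and 36.5, 37.6 and 36.6 at 96 h. Here too no irradiated value overlapped those at 0 h, and of the values at earlier times only the highest one at 48 h reached the range at 96 h. The mean at 96 h was 1.63-fold that at 0 h.

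**Figure D5:**
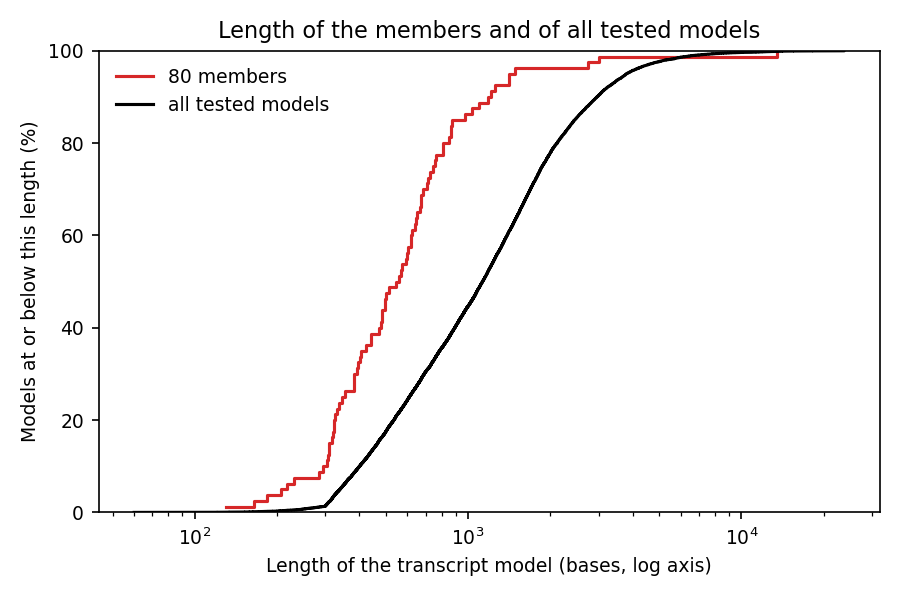
The percentage of models at or below a given length (y axis) is plotted against length in bases (x axis, log scale) for the 80 members (red) and all tested models (black). The member curve lies to the left over most of its range, with medians of 552 and 1129 bases.

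The replicates of the members were more spread than those of most models, also at the times the choice did not use. The median coefficient of variation between the 3 libraries was 11.8% in the members and 7.07% in all tested models at 48 h, and 12.4% and 7.96% at 72 h. At 0 h it was 17.3% in the members and 8.29% in all tested models, at 24 h 11.9% and 7.27%, and at 96 h 9.99% and 6.12%. In the models with the late rise only it was 14.9% at 48 h and 18.4% at 72 h, above the members. In those with the early rise only it was 5.97% and 6.88% at these times. Level and length differ between these lists too, and their part in the spread was not tested.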

How the data were processed

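The authors deposited RPKM values for 26671 transcript models in 15 libraries, with tools that the submitters' processing notes list as CASAVA 1.8.2, edgeR and Bowtie, in no stated role. Not given in the sources used here are the transcript set, the mapping settings, strand use and the handling of multiply matching reads, so reads of near-identical, overlapping or antisense models may be shared. The values moved in steps fixed by model length and library. From these steps reads and lengths were worked out for 26671 models (100%, tolerance 0.001 reads). Library divisors were 0.974 to 1.027 times the recovered reads, a ratio whose centre was set by the way it was worked out. Its differences between libraries may reflect a scaling in the deposited values, which was not tested.

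Models reaching 1 RPKM in 3 or more libraries (79.6%) were fitted as log2(RPKM + 0.5), which understates changes of low models, with limma 3.58.1 in R 4.3.3 (a mean per time point, 15 libraries, trended variances, two-sided). Python 3.11.15, numpy 2.4.6, pandas 2.3.3 and matplotlib 3.10.9 handled tables and figures. The steps were tested on simulated data, for limma with the same spread beyond counting error set for all models. Such a test does not show how limma behaves on models as spread as the members. Members and lists were chosen with earlier results of these data known. Named were the 2 members with the largest 96 h change (at least 1 RPKM and no overlap at 0 h) and the 2 with the largest called fall at 72 h against 48 h. Gene lists were set aside for use with names and were not used.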

Additional observations from a re-analysis of the deposited data

Results flagged for a closer look

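A direct limma contrast of 72 h with 48 h set 3 of the 80 members apart, all 3 called lower at 72 h (adjusted p below 0.05), beside 1.4% of all tested models. The call of the member without an ID here was lost under 9 of 14 alternatives, and the other calls held in all 14. Of the members named by ID, SMED30027500 changed by -0.57 and SMED30010468 by -0.38 on the log2 scale between these times. For SMED30027500 the contrast of 96 h with 72 h was not called (a change of -0.27, SE 0.08, limma adjusted p = 0.0797). SMED30010468 was called higher at 96 h than at 72 h (a difference of 0.43 on the log2 scale, SE 0.06, limma adjusted p = 0.00122), a contrast that uses a time in the choice of members. Groups of 3 libraries were too small to look for single outlying libraries.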

How the results depend on the processing

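With a pseudocount of 1 RPKM in the thresholds 41 members were chosen, with 0.1 RPKM 120, and with a floor of 5 RPKM at 96 h 42. RPKM from plain read totals gave 80, and all 80 were shared. Leaving out 1 library at 0, 24 or 96 h gave 72 to 137, the highest counts without 0 h replicate 1 (137) and 0 h replicate 3 (123). At 72 h against 48 h, limma-voom on recovered reads called 2 members higher, and leaving out 1 library of these times gave 0 to 1 higher (1 without 72 h replicate 1) and 2 to 3 lower. Under the other alternatives for this contrast (pseudocounts, filters, quantile normalization, a fit to the 6 libraries) 0 members were called higher and 2 or 3 lower. With at least 3 RPKM in at least 3 libraries only 63 members were tested.

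Deviations from group means correlated at -0.03 to 0.11 between same-numbered libraries at 48 h and 72 h. Over all pairs of times the range was -0.06 to 0.11 for same-numbered libraries and -0.14 to 0.06 for differently numbered ones. These values cannot tell whether the replicate numbers mark pairs. With the replicate number as a block, 0 members were called higher and 2 lower. Planned count tests other than limma-voom were not run, because the deposited values are RPKM. Depth limits the 52 members with under 100 reads over the 0 h libraries.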

Other observations

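A pair of unnamed members, both with few reads at 0 h, shows how such members differ, and both were picked after their values had been seen. The member with the largest change at 48 h, 382 bases long, had 9.69, 12.7 and 9.52 RPKM at 48 h, against 3.59, 2.90 and 1.90 RPKM at 0 h. Its reads per library were 95 to 105 at 48 h and 9 to 19 at 0 h. Its mean was 9.48, 10.6, 7.87 and 5.45 RPKM at 24, 48, 72 and 96 h, and its change at 96 h was still within the thresholds. The shortest member, 130 bases long, had 1.50, 4.23 and 2.64 RPKM at 96 h, against 2.22, 1.55 and 0 RPKM at 0 h. Each library held 6 to 17 of its reads at 96 h, against 0 to 4 at 0 h, and its groups overlapped at 24, 72 and 96 h. One further member, 675 bases long, had its mean at 72 h (2.41 RPKM) below that at 0 h (2.69 RPKM), while its values at 96 h were 4.10, 5.80 and 5.42 RPKM.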
